A study of Rattus norvegicus with 125 samples.

Results

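The genes described here are the subunits of the ionotropic GABA receptors and of the glutamate receptors in rats that had breathed phosphine (PH3), a fumigant gas. They were taken by symbol from the annotation of an Affymetrix rat expression array: every gene whose symbol begins with Gabr, Gria, Grin, Grik or Grm and names a receptor subunit. This gave 39 genes of the 13439 with a probe set of their own, and where a gene had several, the brightest over the brain arrays was used. The 39 genes comprise 16 GABA-A receptor subunits, 4 AMPA, 7 NMDA and 5 kainate receptor subunits, and 7 metabotropic glutamate receptors.

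The rats were adult male Sprague-Dawley rats. PH3 rats breathed the gas with the whole body at 387 ppm for 40 min, which is 15480 ppm × min, and Air rats served as controls. Brain was taken 1, 3, 6 and 24 h after exposure, with 4 PH3 and 4 Air rats at each time, 32 rats and 32 arrays in all. The labels name the tissue as brain and give no region. Heart and kidney were taken at the same times, liver at 6 h with both exposures, and lung at 3 h, 24 h and 1 week, from 48 rats in all. These groups held 4 arrays, except 2 Air arrays in heart at 24 h and in lung at 3 h, and 3 PH3 arrays in heart at 24 h and in lung at 1 week. Levels below are the deposited log2 signals, a change is the PH3 mean minus the Air mean in log2 units ± the standard error of the fit, and a change of 1 is a 2-fold change. Arrays have no read depth, and the number of arrays per group limits the precision.

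GABA-A receptors are chloride channels of 5 subunits that carry most fast inhibition in the brain, and the mixture of alpha, beta and gamma or delta subunits sets where a receptor sits and how it responds. AMPA, NMDA and kainate receptors are cation channels opened by glutamate, the main excitatory transmitter. AMPA receptors carry the fast current, NMDA receptors admit calcium when the cell is already depolarised, and kainate receptors mostly tune transmission. Metabotropic glutamate receptors signal through G proteins. Several subunits are known for one region, among them Gabra6 and Grin2c, which are made in the granule cells of the cerebellum.

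Each organ was checked against its own markers before any comparison. The mean of 10 neuron markers lay between 10.84 and 11.11 on the brain arrays and at most at 5.57 on the arrays of other organs. Heart muscle, kidney tubule, hepatocyte and lung epithelium markers were likewise highest in their own organ. Within brain, 2 Air arrays of the 24 h group stood apart, those of rats 89 and 145. The mean of the 15 cerebellum markers measured of 17 was 5.98 and 6.12 on them, and 7.43 to 9.29 on the other 30 brain arrays. Of these cerebellum markers, Pcp2 was at 3.40 and 3.50 on the arrays of rats 89 and 145 and at 9.38 or more on the others. Fat2 was at 3.72 and 3.81 on these arrays and at 7.01 or more on the others. The array of PH3 rat 91, also at 24 h, had the highest cerebellum mean (9.29) and the lowest striatum mean, 6.43 against 7.69 to 9.13 elsewhere. Hepatocyte markers, 9 measured of 10, ran from 4.57 to 9.48 on the brain arrays and were highest on PH3 rat 85 and Air rat 84, both at 24 h, and their part in the results was not tested. In tissue that holds many cell types, fewer cells of a type and less RNA per cell cannot be told apart.

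The first question was which subunits the arrays measured above the signal of organs without these synapses. Every one of the 16 Air brain arrays lay above every one of the 44 Air arrays of heart, kidney, liver and lung for 19 of the 39 subunits. The same was true of 10.4% of all genes. The 19 were Gabra2, Gabra5, Gabrb1, Gabrd and Gabrg1 among the GABA-A subunits, Gria1, Gria2 and Gria4, the NMDA subunits Grin1, Grin2c and Grin3a, the kainate subunits Grik1, Grik2, Grik4 and Grik5, and the receptors Grm2, Grm3, Grm4 and Grm7. Without rats 89 and 145 the count was 20 of 39, with Gabra6 added, against 10.6% of genes. Gria3 missed this criterion through heart, where its highest Air array (8.44) lay above its lowest Air brain array (8.22).

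Apart from Gabra6 and Gria3, the other subunits gave little signal in brain. In 19 of 39 the mean over the brain arrays lay under 5.33, the limit taken for dim genes, and Grm7 was the 1 of these whose brain arrays all lay above the other organs. Among these dim subunits were Gabra3, Gabrb2, Gabrg3, Grin2a, Grin2b, Grin2d, Grik3 and Grm5, several of which are known as abundant brain subunits. For Grin2b, the Air mean was 4.43 ± 0.12 in brain (SD, n = 16) and 4.56 ± 0.38 in heart (n = 14). For Gabrb2 it was 3.79 ± 0.13 in brain and 3.90 ± 0.19 in heart.

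Averaged over matched times in Air rats, 25 of 39 subunits were higher in brain than in heart by limma with Benjamini-Hochberg adjustment, where 35.2% of all genes were. Against kidney it was 29 of 39 (32.9% of genes), against liver at 6 h 24 (32.7%) and against lung at 3 and 24 h 27 (30.1%). Over 2-fold higher were 21 against heart, 21 against kidney, 21 against liver and 22 against lung, and the same share of all genes was not counted. The rest include small differences of dim subunits, such as Gabrr3 against kidney (0.11). Without rats 89 and 145 the count against kidney was 27. Grm6 was called higher against every organ (0.17 to 0.35), but its other probe sets gave -0.43 to -0.07. The median difference over the 39 was 1.42 against heart, 1.58 against kidney, 1.13 against liver and 1.89 against lung, and over all genes -0.12, -0.15, -0.16 and -0.07. Gria2, the AMPA subunit that limits calcium entry, had large differences from every organ. Its mean was 11.83 ± 0.69 in brain and 3.81 ± 0.14 in heart, a difference of 8.02 ± 0.14 at matched times (adjusted p = 1.34e-44, limma). It was 7.78 against kidney, 7.35 against liver and 7.72 against lung. Levels of 3 to 4 are the low end of the scale in every organ and no detection call was used, so such differences are not exact folds and their order is not read. Gabrb1, a beta subunit of GABA-A receptors, differed by 5.56 to 6.01. Gabra6 differed by 5.81 to 7.63 with all arrays. Without rats 89 and 145 its difference was 7.50 ± 0.12 against heart, 7.40 ± 0.11 against kidney and 7.82 ± 0.19 against lung.

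**Figure D1:**
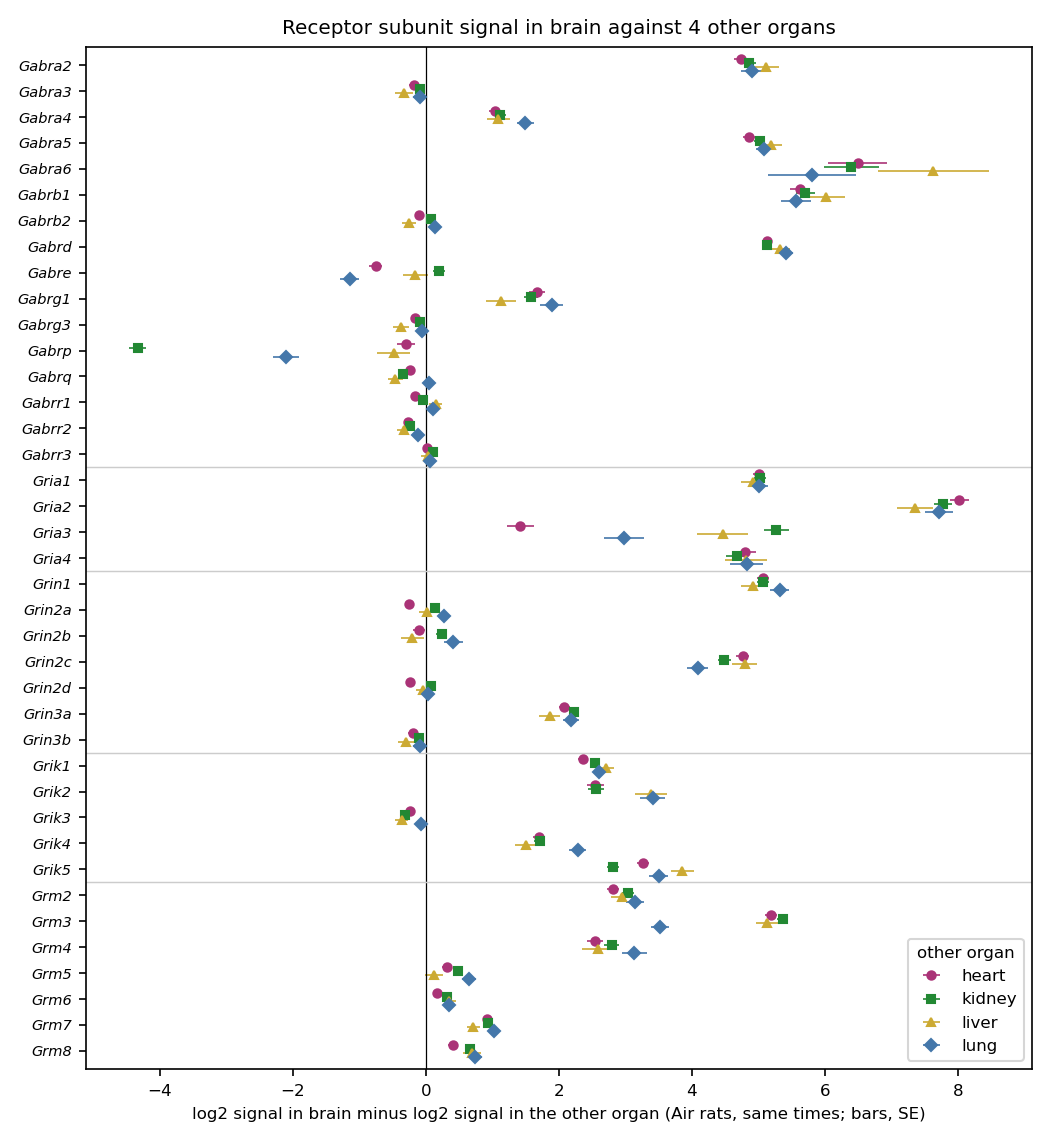
Log2 signal in brain minus log2 signal in heart, kidney, liver or lung of Air rats at matched times for the 39 subunits, grouped by receptor family, with standard errors. Gria2 lies at 7.35 to 8.02 in all 4 comparisons, Gria3 at 1.42 against heart and 5.27 against kidney, and Gabrp at -4.34 against kidney.

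Fewer subunits were lower in brain than elsewhere. The count was 11 of 39 against heart (47% of genes), 4 against kidney (49.8%), 7 against liver (41.1%) and 2 against lung (39.8%). Gabrp, the pi subunit, which is known from epithelia more than from neurons, had the largest of these differences. Its Air level was 3.31 ± 0.10 in brain (SD, n = 16), 7.64 ± 0.45 in kidney (n = 16) and 5.21 ± 0.58 in lung (n = 10). The difference was -4.34 ± 0.12 against kidney (adjusted p = 1.55e-35, limma) and -2.11 ± 0.20 against lung (adjusted p = 5.42e-14, limma). Gabrp has another probe set, which read 3.32 in kidney. Its brain signal differed by only -0.21 from kidney and by -0.26 from lung. Gabre, the epsilon subunit, was at 4.13 ± 0.24 in brain, 4.89 ± 0.27 in heart and 5.15 ± 0.38 in lung, differences of -0.75 and -1.15. Another Gabre probe set gave differences of only -0.20 from heart and -0.06 from lung. The remaining subunits lower in brain had differences of -0.46 to -0.16 and low signal in all organs. They were Gabra3, Gabrg3, Gabrq, Gabrr1, Gabrr2, Grik3, Grin2a, Grin2d and Grin3b against heart, Gabrq, Gabrr2 and Grik3 against kidney, and Gabra3, Gabrb2, Gabrg3, Gabrq, Gabrr2, Grik3 and Grin3b against liver. Several of these calls were lost when 1 array was left out: Gabra3, Gabrg3 and Grin3b against heart, and Gabra3, Gabrb2, Gabrg3 and Grin3b against liver. Grin3b against liver was also lost with the mean of its probe sets (-0.15, adjusted p = 0.0899, limma). For Grin2a against heart another probe set went the other way, with a difference of 0.32. Gabrp was also lower in brain than in heart, with a difference of -0.30 whose call was lost when 1 of several heart arrays was left out. When all arrays were set to the same median, the whole table moved by -0.26 against heart, -0.12 against kidney, -0.35 against liver and -0.01 against lung. The counts of higher and lower subunits were then 22 and 14 against heart, 25 and 8 against kidney, 23 and 13 against liver, and 27 and 2 against lung. Over all genes the share of higher among called genes went from 42.8% to 31.5% against heart, from 39.8% to 33.6% against kidney and from 44.3% to 30.9% against liver.

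Gria3 was the 1 AMPA subunit with high signal outside brain. Its Air level was 9.50 ± 0.65 in brain, 8.04 ± 0.37 in heart, 6.19 ± 0.75 in lung, 5.46 ± 0.59 in liver (n = 4) and 4.23 ± 0.40 in kidney. The difference of brain from heart was 1.42 ± 0.20 (adjusted p = 1.11e-08, limma). Another Gria3 probe set gave 1.60 against heart and 4.79 against kidney, so both probe sets put heart nearer to brain than kidney. Grm3, a receptor of the inhibitory group that astrocytes also make, was at 9.09 ± 0.27 in brain, 5.59 ± 0.34 in lung and 3.91 ± 0.18 in heart.

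The main question was whether inhaled PH3 changed subunit expression in brain. At 1, 3, 6 and 24 h, 0 of 39 subunits passed limma at an adjusted p under 0.05. Of all genes, 0.00744% passed at 1, 3 and 6 h (1 gene at each time) and 0.0298% at 24 h (4 genes). Subunits with an unadjusted p under 0.05 numbered 2, 1, 3 and 8 at the 4 times, which is 5.13%, 2.56%, 7.69% and 20.5% of them against 5.19%, 4.03%, 3.21% and 12.2% of all genes. The median change of the 39 was -0.02, 0.08, -0.01 and -0.03, and that of all genes 0.01, -0.03, 0.01 and -0.02. The 95% confidence interval of the change lay within 2-fold in either direction for 33 subunits at 1 and 3 h and for 31 at 6 and 24 h. Among the 20 subunits whose Air brain arrays lay above the other organs once rats 89 and 145 were left out, it did so for 15, 15, 13 and 12. In the others the interval reached past 2-fold, and among them were Gabra6, Gabrb1, Gria2 and Gria4 at every time. Gria3, bright in brain but outside this set through heart, had intervals of -1.48 to 0.19 at 1 h, -0.61 to 1.06 at 3 h, -1.10 to 0.57 at 6 h and -0.80 to 0.88 at 24 h.

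Families are given by their counts alone. Over all 39 subunits, 15, 29, 16 and 18 changes were positive at 1, 3, 6 and 24 h, and over the 13439 genes 7286, 5270, 6970 and 5971 were. All 7 NMDA subunits had a positive change at 3 h, with values of 0.03 to 0.12, and all 4 AMPA subunits did, with values of 0.12 to 0.34. Of the 7 NMDA subunits, 4 are dim in brain. Their other probe sets at 3 h gave -0.07 for Grin2a and -0.09 for Grin3b, and 0.19 for Grin1 and 0.11 for Grin2d. At 6 h all 5 kainate subunits were negative, with values no lower than -0.22. At 1 h, 3 of 4 AMPA subunits and 10 of 16 GABA-A subunits were negative. None of these subunits passed the test.

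At 1 h after exposure the subunit with the smallest p was Grm5, a metabotropic receptor that couples to phospholipase C. Its PH3 arrays were at 4.04, 3.57, 3.74 and 3.95 and its Air arrays at 4.48, 4.09, 4.26 and 4.41. All PH3 arrays lay below all Air arrays, though close together and in the dim range of the array. The change was -0.49 ± 0.18 (unadjusted p = 0.0107, adjusted p = 0.908, limma). Gabrd, the delta subunit of extrasynaptic receptors, was at 8.67, 9.24, 9.16 and 9.01 in PH3 rats and at 9.07, 8.31, 8.75 and 8.26 in Air rats. Here the groups overlapped, with Air rats 107 and 168 within the PH3 range, and the change was 0.42 ± 0.19 (adjusted p = 0.926, limma). The largest positive difference was that of Gabra6, 0.64 ± 1.14, with PH3 arrays at 10.19 to 11.29 and Air arrays at 9.18 to 11.23. The standard error of Gabra6 is pooled over the 32 brain arrays and is large because of the 24 h group described below. Grm4, a presynaptic receptor known from the parallel fibres of the cerebellum, had a change of 0.34 ± 0.30. The largest negative differences were those of Gria3 (-0.65 ± 0.41), Grm5 and Gria2 (-0.47 ± 0.43). Gria2 was at 10.41, 10.52, 11.56 and 12.30 in PH3 rats and at 12.04, 12.50, 10.52 and 11.64 in Air rats, so arrays near 10.5 occurred in both groups. Gabra3, a dim subunit, was the other 1 whose groups did not overlap, with a change of 0.16 ± 0.10. That makes 2 of 39 subunits without overlap, against 2.24% of all genes. A measure of RNA integrity, the signal of the beta-actin probe set at the 3' end minus that at the 5' end, averaged 4.02 on the PH3 and 3.51 on the Air brain arrays of this time, and its part in these values was not tested. The mean of the 10 neuron markers at 1 h was 10.84 to 10.92 on the PH3 and 10.96 to 11.04 on the Air arrays, without overlap, and its part was likewise not tested.

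At 3 h the largest positive differences were those of Gabrg1 (0.705 ± 0.45), Gabrb1 (0.42 ± 0.48) and Gria2 (0.34 ± 0.43). Gabrg1, the gamma 1 subunit, was at 6.49, 6.33, 4.47 and 4.93 in PH3 rats and at 5.17, 4.50, 4.94 and 4.79 in Air rats. Only PH3 rats 105 and 111 lay above the Air arrays. The largest negative differences were those of Gabra5, an alpha subunit known from the hippocampus (-0.36 ± 0.29), Grm2 (-0.23 ± 0.29) and Grm6, known from the retina (-0.22 ± 0.12), for which another 2 probe sets gave 0.07 and 0.02. The smallest p was that of Gabra3, 0.24 ± 0.10 (unadjusted p = 0.0234, adjusted p = 0.999, limma). Its arrays were at 3.83, 3.78, 3.54 and 3.74 with PH3 and at 3.38, 3.41, 3.45 and 3.69 with Air, all near the lower end of the scale. The groups overlapped for every subunit, 0 of 39, against 2.95% of genes without overlap.

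The largest difference of the 39 subunits at 6 h was that of Gabrg1. Its PH3 arrays were at 5.96, 5.77, 6.99 and 6.15, and its Air arrays at 4.25, 5.28, 5.32 and 4.54. Each PH3 array lay above each Air array, and Gabrg1 was the 1 of 39 subunits without overlap, against 2.37% of genes. The change was 1.37 ± 0.45, which is 2.59-fold, with a 95% interval of 0.46 to 2.29 (unadjusted p = 0.00462, adjusted p = 1, limma). At 1 h the Gabrg1 change was -0.37 ± 0.45 and at 24 h -0.03 ± 0.45. The limma F test of a difference between times gave Gabrg1 an unadjusted p of 0.0453 and an adjusted p of 0.935. The Gabrg1 mean over the brain arrays was 5.34, just above the limit of 5.33 taken for dim genes. Its Air arrays at 6 h all lay under that limit. Air rat 145 at 24 h was at 6.44, within the PH3 range at 6 h. Gabrg1 has 1 probe set on the array. It lies beside other GABA-A genes on chromosome 14 in the RefSeq annotation of build GRCr8. This cluster of GABA-A genes runs Gabrb1, Gabra4, 1 other gene, Gabra2 and Gabrg1, and at 6 h the changes were -0.62 ± 0.48, 0.23 ± 0.33, -0.30 ± 0.40 and 1.37 ± 0.45, of which 0 passed.

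The 250 bases before the start of Gabrg1 are printed because it had the largest difference at 6 h. They come from RefSeq, build GRCr8, at chr14:37750042-37750291 (plus strand), 5′ to 3′ toward the start. Capitals mark matches to TTGGC on either strand (GCCAA on the other) and to CANNTG, which reads the same on both strands, and no match of one overlaps a match of the other in the sequences printed here. TTGGC is a motif that nuclear factor I binds, and CANNTG is the E-box.
Gabrg1: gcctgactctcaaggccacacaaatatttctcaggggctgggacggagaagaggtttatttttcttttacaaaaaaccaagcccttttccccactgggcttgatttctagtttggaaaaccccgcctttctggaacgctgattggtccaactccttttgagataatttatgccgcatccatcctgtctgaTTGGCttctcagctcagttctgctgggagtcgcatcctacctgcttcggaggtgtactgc
It holds 1 TTGGC match, 60 bases before the start, and 0 CANNTG matches. Of the 33469 promoters in the RefSeq table, 40.3% hold TTGGC and 65.5% hold CANNTG in the same 250 bases. For the subunits with an entry these shares were 14 and 18 of 28.

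The other named subunits at 6 h were closer to 0. Grm2, a presynaptic receptor that limits glutamate release, was at 6.37, 6.84, 5.79 and 6.31 in PH3 rats and at 6.59, 7.32, 6.69 and 7.30 in Air rats. The change was -0.65 ± 0.29 (unadjusted p = 0.0346, adjusted p = 1, limma), and PH3 rat 135 lay within the Air range. Gabrb1 was at 9.41, 9.90, 8.89 and 8.68 with PH3 and at 10.06, 10.06, 9.90 and 9.33 with Air (-0.62 ± 0.48), so the upper PH3 arrays lay within the Air range. Gabra4, an alpha subunit of extrasynaptic receptors in the forebrain, was at 4.62 to 5.03 with PH3 and at 4.54, 4.66, 5.54 and 3.97 with Air (0.23 ± 0.33). Gabra3 had a change of 0.21 ± 0.10 and Gria4 one of -0.35 ± 0.50. Gria4 has 2 further probe sets, which gave 0.33 and 0.31, so its direction at 6 h differed between probe sets. The median standard error of the 39 subunits was 0.18, and the lowest and highest were 0.06 and 1.14.

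**Figure D2:**
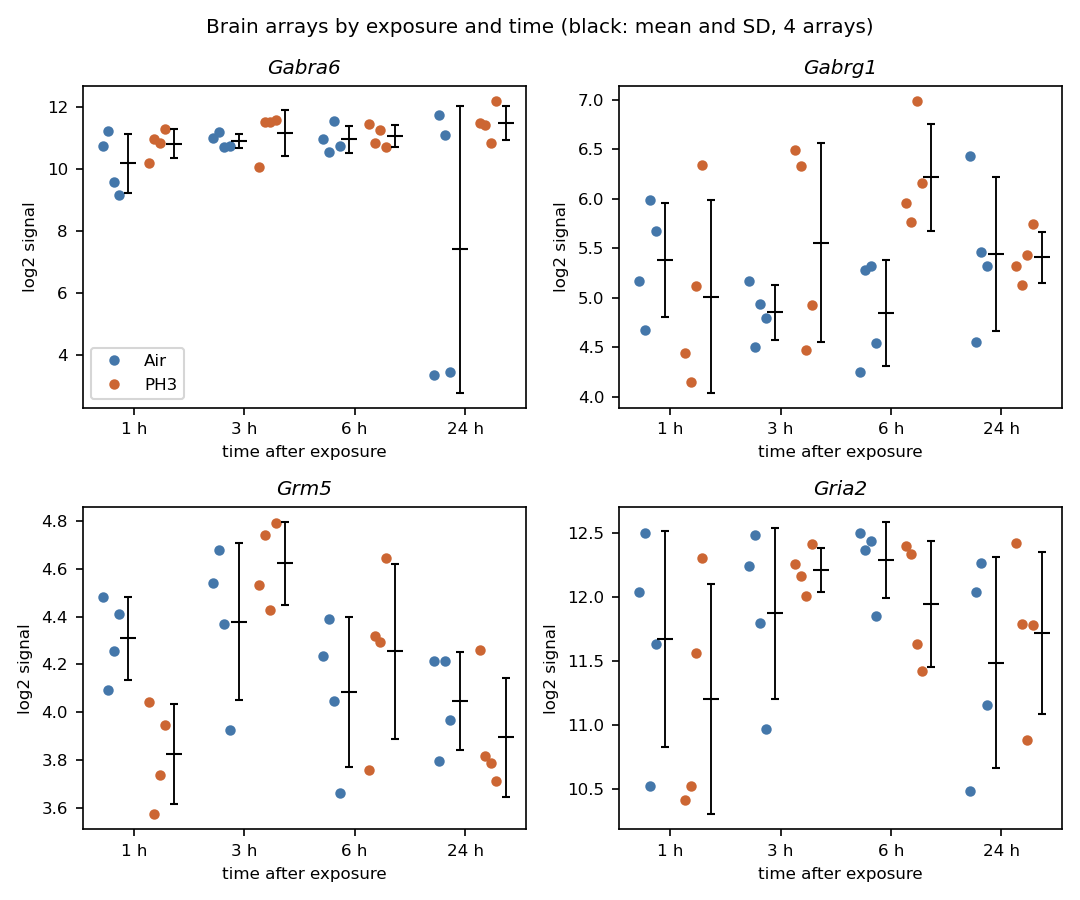
Log2 signal of Gabra6, Gabrg1, Grm5 and Gria2 on each of the 32 brain arrays by time after exposure, Air in blue and PH3 in orange, with the mean and SD of 4 arrays in black. Gabra6 is at 3.45 and 3.33 on 2 Air arrays at 24 h and at 9.18 or more on all others, and the Gabrg1 groups separate at 6 h.

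At 24 h the largest difference of any subunit was that of Gabra6. Its PH3 arrays were at 11.43, 10.86, 12.22 and 11.49. Its Air arrays were at 11.74 and 11.11 in rats 83 and 84 and at 3.45 and 3.33 in rats 89 and 145. The signal in rats 89 and 145 is that of heart, kidney, liver and lung, whose highest Air array was at 3.59, and the other 2 Air rats lay among the PH3 rats. With all 8 arrays the change was 4.09 ± 1.14, 17.1-fold (unadjusted p = 0.00121, adjusted p = 0.153, limma). Without rats 89 and 145 it was 0.07 ± 0.46, and without PH3 rat 91 as well -0.17 ± 0.47. Gabra6 passed with array weights (5.15 ± 1.05, adjusted p = 0.0439, limma), in a fit that called 27 genes, 0.201%, at 24 h, and without Air rat 83 (5.54, adjusted p = 0.00849) or Air rat 84 (5.33, adjusted p = 0.0316), each of which leaves rats 89 and 145 in. Without rat 89 alone it was 2.77 and without rat 145 alone 2.73 (adjusted p = 0.74 and 0.773, limma). Another Gabra6 probe set read 3.56 and 3.58 in rats 89 and 145 and 5.62 or more on the other 30 arrays, with a change of 2.45. Of the 39 subunits, Gabra6 was the 1 whose arrays of both rats lay below the other 30 brain arrays, as 2.48% of genes did. For 0 of 39 did both lie above, against 6.73% of genes.

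The next largest at 24 h were Gria4, an AMPA subunit with fast kinetics, at 0.83 ± 0.50, and Grin2c, the cerebellar NMDA subunit, at 0.75 ± 0.28 (unadjusted p = 0.0114, adjusted p = 0.257, limma). Gria4 was at 8.63, 8.09, 9.86 and 9.27 in PH3 rats, at 9.34 and 8.91 in Air rats 83 and 84, and at 7.48 and 6.78 in Air rats 89 and 145. Grin2c was at 9.79, 9.01, 10.24 and 9.39 in PH3 rats, at 9.60 and 8.85 in rats 83 and 84, and at 8.35 and 8.62 in rats 89 and 145. For both genes rats 89 and 145 were the lowest of the 8 and rat 91 the highest. Without rats 89 and 145 the changes were -0.16 ± 0.53 for Gria4 and 0.38 ± 0.33 for Grin2c. Grm4, next in size and with p under 0.05 unadjusted, went from 0.745 ± 0.30 to 0.42 ± 0.36.

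The promoters of the 3 subunits with the largest positive change at 24 h are printed from the same RefSeq table, 250 bases each, with capitals as before. They lie at chr10:27327235-27327484 (minus strand), chr10:101005139-101005388 (minus strand) and chr8:10319882-10320131 (minus strand).
Gabra6: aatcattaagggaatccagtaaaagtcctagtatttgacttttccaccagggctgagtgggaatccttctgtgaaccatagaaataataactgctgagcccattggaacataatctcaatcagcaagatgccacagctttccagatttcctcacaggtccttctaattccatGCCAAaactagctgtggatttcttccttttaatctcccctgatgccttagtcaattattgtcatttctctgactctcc
Grin2c: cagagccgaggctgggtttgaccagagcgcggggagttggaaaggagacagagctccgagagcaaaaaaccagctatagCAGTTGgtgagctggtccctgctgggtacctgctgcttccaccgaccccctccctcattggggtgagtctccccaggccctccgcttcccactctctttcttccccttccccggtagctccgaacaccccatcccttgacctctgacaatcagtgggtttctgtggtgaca
Gria4: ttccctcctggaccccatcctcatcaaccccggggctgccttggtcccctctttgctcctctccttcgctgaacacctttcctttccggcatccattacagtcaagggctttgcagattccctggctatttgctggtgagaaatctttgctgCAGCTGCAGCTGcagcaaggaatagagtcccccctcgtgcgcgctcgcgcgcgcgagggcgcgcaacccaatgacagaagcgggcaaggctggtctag
Gabra6 holds 1 TTGGC match (as GCCAA), 78 bases before the start, and 0 CANNTG matches. Grin2c holds 1 CANNTG match at 171 bases and Gria4 2 adjoining ones at 98 and 92 bases, and neither holds TTGGC. No motif was shared by all 3. Against the shares of all promoters given above, these matches are a description of the letters only.

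The negative side at 24 h was led by Grm2 at -0.64 ± 0.29, Gabra2 at -0.52 ± 0.40 and Grik5 at -0.47 ± 0.19. Grm2 was at 6.72, 6.32, 4.94 and 6.02 in PH3 rats and at 6.03, 6.84, 7.07 and 6.63 in Air rats, and its lowest array was that of rat 91. Its change was -0.44 ± 0.36 without rats 89 and 145, and -0.08 ± 0.31 without rat 91 as well. Grik5, a kainate subunit of high affinity, was at 8.57 and 8.26 in rats 89 and 145 and at 7.25 to 7.75 on the other 6 arrays of the time. Its change was -0.03 ± 0.19 without those 2 rats. Gabra2, an alpha subunit of the forebrain, was at 7.77, 7.81, 7.66 and 8.94 in PH3 rats and at 9.32, 8.44, 8.37 and 8.11 in Air rats, and without rats 89 and 145 its change was -0.84 ± 0.49. Its direction was thus kept, by 4 PH3 arrays of which rat 149 lay within the Air range. No subunit had groups without overlap at 24 h, 0 of 39, against 2.55% of genes.

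Without rats 89 and 145, 1 of 39 subunits had an unadjusted p under 0.05 at 24 h where 8 had before, and 2.36% of all genes did where 12.2% had before. The 1 subunit was Gabre (0.32 ± 0.15, unadjusted p = 0.0431, adjusted p = 1, limma). Without PH3 rat 91 as well, 0 of 39 and 2.02% of genes did. In both fits 0 genes of any kind passed at an adjusted p under 0.05. Another marker list differed between the PH3 and Air arrays at 24 h, and rats 83 and 84 were on the Air side too. The mean of the 10 brain stem and spinal cord markers measured of 13 was at 4.58, 4.77, 4.68 and 5.23 on the PH3 arrays and at 3.83, 4.04, 4.10 and 3.87 on the Air arrays, without overlap. Of the 10, 9 had a positive change, with a median of 0.68 over the list and of 0.64 without rats 89 and 145. The list mean also varied between Air groups. It was 4.40 to 4.85 on the Air arrays at 1 h, 3.98 to 4.86 at 3 h and 3.96 to 4.25 at 6 h. The 24 h PH3 arrays other than rat 91 thus lay within the range of Air arrays at earlier times. The part of this list in the 24 h values of the subunits was not tested.

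**Figure D3:**
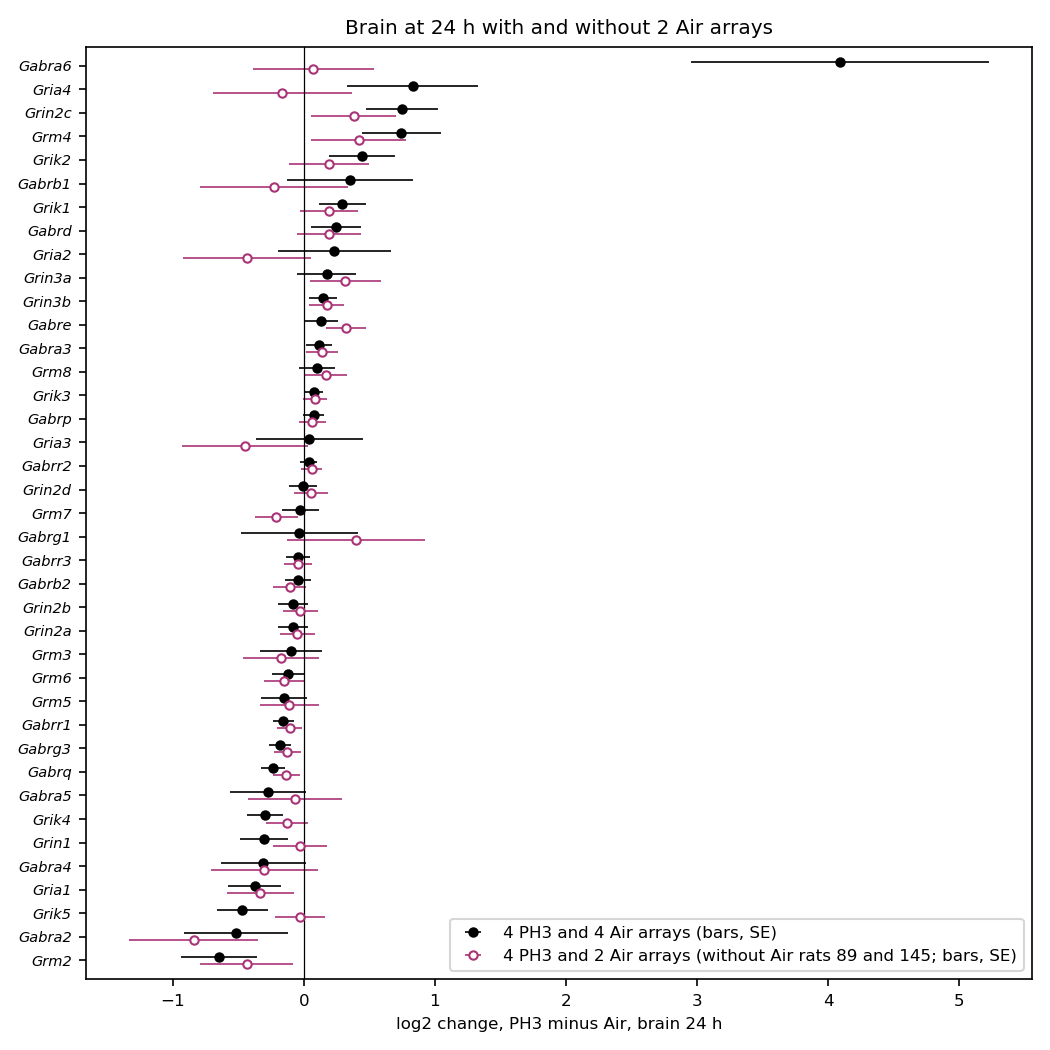
Log2 change (PH3 minus Air) of the 39 subunits in brain at 24 h with standard errors, from 4 PH3 and 4 Air arrays (black) and without Air rats 89 and 145 (open). Gabra6 is at 4.09 with all arrays and at 0.07 without the 2, and Gria4 crosses 0 from 0.83 to -0.16.

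For Gabra6, Gria4 and other subunits the difference within the Air group at 24 h was larger in size than that between exposures. Among the others were Gria2, Gabrb1, Gria3, Grik5, Gabrg1 and Grin1, with exposure changes of 0.23, 0.35, 0.04, -0.47, -0.03 and -0.30. It was not so for Grm2 (0.42 within Air, -0.64 between exposures). Rats 89 and 145 were set apart with their values known, so this is a description. Within Air, the mean of rats 89 and 145 minus that of rats 83 and 84 was -8.04 for Gabra6, -1.99 for Gria4, -1.33 for Gria2, -1.15 for Gabrb1 and -0.98 for Gria3. At the other end it was 0.88 for Grik5, 0.87 for Gabrg1 and 0.55 for Grin1. In 4 of 39 subunits it was below -1, as in 3.77% of genes, and in 0 above 1, as in 1% of genes. Cerebellum markers, as given, were lower on rats 89 and 145 as a list, and striatum markers (11 measured of 12) were at 8.92 and 9.13 on them, the 2 highest of the 32 arrays. Cortex and hippocampus markers (11 measured of 13) were also highest on them, at 6.82 and 6.76, and lowest on rat 91 (5.69). Astrocyte markers (7 measured of 7) were lowest on them, at 10.50 and 10.54, and highest on rat 91 (11.17). The part of these marker differences in the 24 h results was not tested.

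**Figure D4:**
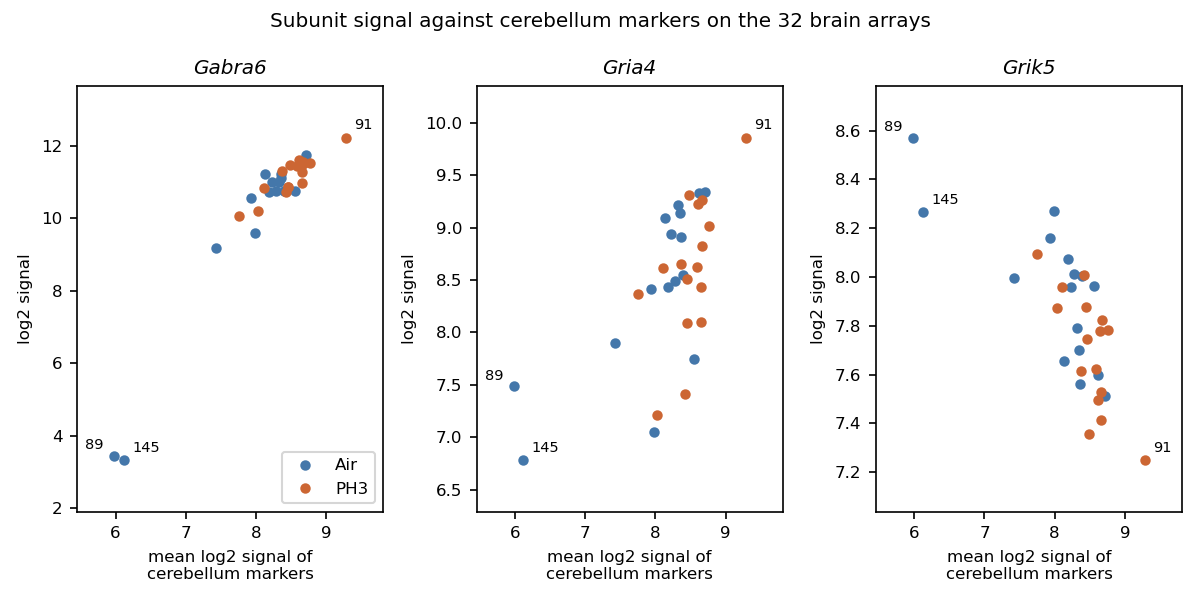
Log2 signal of Gabra6, Gria4 and Grik5 against the mean log2 signal of 15 cerebellum markers on each of the 32 brain arrays, Air in blue and PH3 in orange, with rats 89, 145 and 91 named. Rats 89 and 145 lie alone at 5.98 and 6.12 on the marker axis, with Gabra6 at 3.45 and 3.33, and rat 91 lies at 9.29.

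Gria2, Gria3, Gabrb1 and Gria4, which were lower on rats 89 and 145 than on rats 83 and 84, were low together on a set of arrays. That set held rat 145 but not rat 89. Gria2 was lowest against its group mean on 6 arrays, Air rats 168, 145 and 97 and PH3 rats 85, 109 and 115, by 0.68 to 1.15. On these 6 arrays Gria3 was below its group mean by 0.49 to 1.15, Gabrb1 by 0.44 to 1.29 and Gria4 by 0.02 to 1.35. The 6 lowest arrays of Gria3 shared 4 with those of Gria2, and the 6 lowest of Gabrb1 and of Gria4 shared 5 each. Of the 6 arrays, 3 were Air and 3 PH3. These 4 were not alone: 7 of 39 subunits were below their group mean on all 6 arrays, as were 8.88% of all genes. The others of the 7 were Grik2, Grm3 and Grm7. The genes and the arrays were chosen after their values were seen, so this is a description. The standard deviation within groups was 0.65 for Gria2, 0.73 for Gabrb1, 0.76 for Gria4 and 1.73 for Gabra6, against a median of 0.26 over the 39 subunits and 0.19 over all genes.

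Whether the response differed between times was tested directly. The limma F test called 0 of 39 subunits and 0% of all genes, and 3 subunits had an unadjusted p under 0.05, where 4.25% of genes did. Gabrq, the theta subunit, had the smallest (unadjusted p = 0.0251, adjusted p = 0.935, limma). Its change was 0.16 ± 0.09, -0.00 ± 0.09, 0.06 ± 0.09 and -0.23 ± 0.09 at 1, 3, 6 and 24 h. Grm5 followed (unadjusted p = 0.0271, adjusted p = 0.935, limma), with -0.49 at 1 h, 0.24 at 3 h, 0.17 at 6 h and -0.15 at 24 h. Both genes are dim in brain, with mean Air levels of 4.29 ± 0.15 and 4.21 ± 0.28.

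Genes that work with these receptors were counted from 2 lists. Of 20 genes measured of 24 on the GABA and glycine side (synthesis, transport, scaffolds, GABA-B and glycine receptors), 0 passed at any time, and 0, 3, 2 and 2 had an unadjusted p under 0.05 at 1, 3, 6 and 24 h, where 5.19%, 4.03%, 3.21% and 12.2% of all genes did. Of 36 measured of 42 on the glutamate side (transporters, auxiliary subunits, scaffolds), 0 passed, and 0, 2, 0 and 9 had an unadjusted p under 0.05. Without rats 89 and 145 the 24 h counts were 2 of 20 and 1 of 36, where 2.36% of all genes had such a p. The list medians ranged from -0.04 to 0.01 for the first and from -0.12 to -0.05 for the second, where those of all genes ranged from -0.03 to 0.01. At 24 h without rats 89 and 145 the median was 0.07 for the first list and 0.02 for the second. With all arrays these 24 h medians were -0.002 and -0.12. The smallest p of all was that of Glrb, the beta subunit of glycine receptors, at 24 h. Its mean was 10.41 in PH3 and 9.95 in Air, a change of 0.46 ± 0.12 (adjusted p = 0.148, limma), and without rats 89 and 145 it was 0.43. Glra1, the adult alpha subunit of glycine receptors in brain stem and spinal cord, had 0.64 ± 0.25 and 0.60 without those rats. The brain stem and spinal cord markers given above differed in the same direction at 24 h, and their part in the Glrb and Glra1 values was not tested. Camk2a, the kinase of the forebrain synapse, had -1.01 ± 0.30 (adjusted p = 0.188, limma) and -0.79 without them. Slc1a6, the glutamate transporter of Purkinje cells, had 1.76 ± 0.56 and 0.87 without them.

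At the earlier times 0 of these genes passed. At 3 h Nlgn2, an adhesion protein of inhibitory synapses, had 0.53 ± 0.18 and Gabarap, which binds GABA-A receptors in transit, -0.30 ± 0.11. Neto2 and Neto1, auxiliary subunits of kainate receptors, had -0.25 ± 0.10 and -0.56 ± 0.27. At 6 h Gad2, which makes GABA, had 0.83 ± 0.35 and Gphn, the gephyrin scaffold, 0.21 ± 0.09. The astrocyte transporters Slc1a3 and Slc1a2 had -0.18 ± 0.12 and 0.26 ± 0.21. At 1 h the smallest p-values were those of Glra3 (0.12 ± 0.06), Gabbr2 (0.23 ± 0.14), Cacng3 (-0.56 ± 0.31) and Grid1 (-0.18 ± 0.10). Adjusted p-values at 1, 3 and 6 h were 0.97 or higher for all of these genes by limma.

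In the other organs 0 of 39 subunits passed in any of the 12 comparisons of PH3 with Air. The share of all genes that passed was 0.0521%, 0.231%, 2.75% and 0% in heart at 1, 3, 6 and 24 h, 0.223%, 0.104%, 0.126% and 0.0149% in kidney at the same times, 0.283% in liver at 6 h, and 0.275%, 0% and 0% in lung at 3 h, 24 h and 1 week. Subunits with an unadjusted p under 0.05 numbered 1, 5, 3 and 0 in heart, 1, 5, 4 and 0 in kidney, 2 in liver, and 2, 2 and 1 in lung. The share of all genes with such a p was 7.98%, 12.8%, 15% and 3.02% in heart, 9.96%, 7.31%, 7.67% and 2.45% in kidney, 14% in liver, and 11.7%, 1.48% and 2.08% in lung. For heart at 3 h, the 5 subunits are 12.8% of 39, the same share as over all genes.

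Gabrp in kidney came closest. At 6 h its PH3 arrays were at 6.53, 6.40, 6.64 and 5.97 and its Air arrays at 8.32, 7.33, 7.86 and 7.64. All PH3 arrays lay below all Air arrays by at least the distance from 6.64 to 7.33. In kidney at 6 h, 4 of 39 subunits had groups without overlap, 3 of them higher with PH3. Of all 13439 genes, 791 had such groups. The change was -1.40 ± 0.34, a 2.64-fold difference with a 95% interval of -2.10 to -0.70 (unadjusted p = 0.000325, adjusted p = 0.11, limma). With array weights it passed (-1.29 ± 0.29, adjusted p = 0.0275, limma), in a fit that called 103 genes, 0.766%. At 3 h the PH3 arrays were at 6.79, 6.38, 5.75 and 7.65 and the Air arrays at 7.54, 7.80, 8.29 and 7.80, with a change of -1.21 ± 0.34 (adjusted p = 0.265, limma), and PH3 rat 152 lay within the Air range. At 1 h the change was -0.265 ± 0.34, and at 24 h 0.36 ± 0.34 with the groups mixed. The other Gabrp probe set, dim in kidney, gave -0.01 at 3 h and 0.05 at 6 h.

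**Figure D5:**
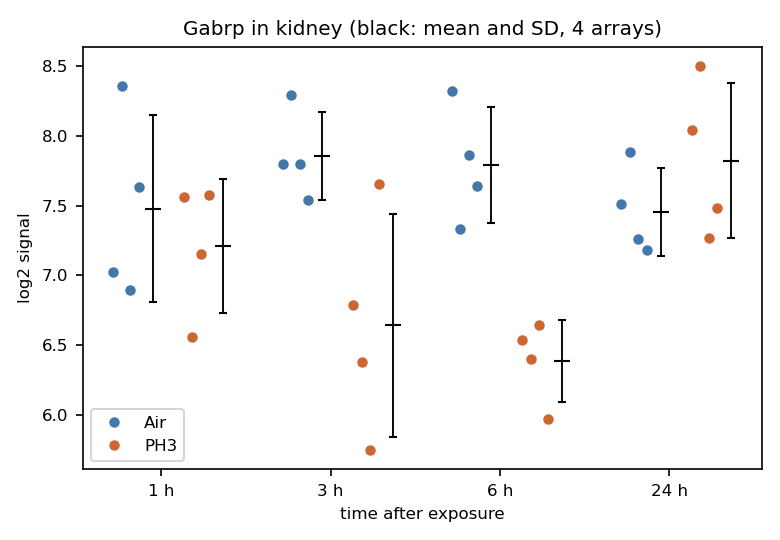
Log2 signal of Gabrp on each of the 32 kidney arrays by time after exposure, Air in blue and PH3 in orange, with the mean and SD of 4 arrays in black. The PH3 arrays lie at 5.97 to 6.64 and the Air arrays at 7.33 to 8.32 at 6 h, and the groups overlap at 1, 3 and 24 h.

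In heart the smallest p was that of Gabrg3 at 1 h, at 4.74, 3.96, 4.36 and 4.13 in PH3 rats and at 3.64, 3.63, 3.84 and 3.80 in Air rats (0.57 ± 0.17, adjusted p = 0.363, limma). These values are near the lower end of the scale. In liver at 6 h it was that of Grin2c, with a change of 0.40 ± 0.17 (adjusted p = 0.312, limma) and means of 4.74 with PH3 and 4.34 with Air. In lung it was that of Grm8 at 24 h, -0.25 ± 0.10 (adjusted p = 1, limma). With array weights 2 subunits passed in lung at 3 h, Gria3 (1.28 ± 0.33, adjusted p = 0.0148, limma) and Grm3 (-0.54 ± 0.19, adjusted p = 0.0487, limma), in a fit that called 18.7% of all genes at a time with 2 Air arrays. Unweighted, their adjusted p-values were 0.385 and 0.395.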

How the data were processed

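RNA from frozen, pulverised tissue was labelled by a 3' IVT method and hybridised to Affymetrix arrays, per the labels' protocols. The deposited table holds log2 signals per probe set that the authors normalized, with RMA, Affymetrix Expression Console and Partek named in the submitters' processing notes, and detection calls were not used here. The array medians lay between 5.08 and 5.52, arrays of a group correlated at 0.951 to 0.994, and 0 columns were identical. Of 31139 probe sets, 19069 had 1 gene symbol in the platform annotation, 572 several and 11498 none; only the first were used, with the probe set of highest brain mean for each of 13439 genes.

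Per organ, limma 3.58.1 in R 4.3.3 was fitted to all groups of the organ (eBayes with trend), with PH3 against Air at each time and Benjamini-Hochberg adjustment over all genes at 0.05. An F test compared the 4 brain times. Brain was set against each other organ in Air rats at matched times. The same rat gave several organs, by the rat numbers in the labels, so the organ fit was repeated with rat as a block. Deviations of the same rat's arrays in different organs correlated with a median of 0.0779 over 64 pairs, and those of different rats with -0.0249 over 224 pairs. PH3 and Air rats differ, so exposure has no pairing. The fits were tested on simulated data.

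Genes named in full were the 3 largest positive and negative differences and the smallest p per brain time, the 2 smallest F test p-values, the 3 extreme and all lower genes per organ comparison, the 2 smallest p-values per partner list and time, and the smallest p per other organ. Some genes of these families are not reported here. The members, gene lists and rules were chosen with earlier results of these data known. Alternatives were equal array medians, a filter on dim genes, other probe sets, no trend, array weights, single times, and leaving out arrays. Leaving out Air rats 89 and 145 with PH3 rat 91, fitting kidney times alone, and leaving out rats 89 and 145 for the organ and partner counts, were chosen after seeing the data. Promoters came from RefSeq (GRCr8), where 28 of the 39 genes matched by symbol. Figures used matplotlib 3.10.9.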

Additional observations from a re-analysis of the deposited data

Results flagged for a closer look

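Of the 72 groups of 4 arrays examined for the named subunits, 3 held an array whose distance from the nearest other, divided by the group's range, passed Dixon's critical value for 4 values. Chance passes about 1 group in 20. Gabra4 in brain of PH3 rats at 6 h was lowest in rat 141 at 4.62, with the others between 4.98 and 5.03. Gabra2 in brain of PH3 rats at 24 h was highest in rat 149 at 8.94, with the others between 7.66 and 7.81. Grin2c in liver of Air rats at 6 h was highest in rat 138 at 4.61, with the others at 4.25.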

How the results depend on the processing

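Of 324 alternatives for the 13 counts of subunits, 315 stayed within 1.5 times the count and 9 did not. With array weights 1 subunit passed in brain at 24 h (Gabra6, with 0.201% of genes called), 1 in kidney at 6 h (Gabrp, 0.766%) and 2 in lung at 3 h (Gria3 and Grm3, 18.7%). Leaving out 1 array gave 0 to 1 subunits in brain at 24 h, the 1 being Gabra6 without Air rat 83 or 84. Without the third of genes lowest over the Air arrays, 3 subunits were higher in brain than in heart, 3 than in kidney, 3 than in liver and 3 than in lung, since the filter keeps only Gria2, Gria3 and Grin2c. For the single subunits, 1546 of 1592 alternatives kept direction and side of the threshold, 23 lost the call (all of subunits lower in brain than in heart or liver: Gabra3, Gabrb2, Gabrg3, Gabrp and Grin3b), 6 gained it, and 17 turned the direction. Other probe sets turned Grm6 at 3 h to 0.0731 and 0.0238 and Gria4 at 6 h to 0.31 and 0.33, the mean of probe sets gave 0.10 for Gria4 at 6 h and 0.0336 for Grin2a in brain minus heart, and array weights gave 0.0082 for Gabrq at 3 h. At 24 h, Gria4 was -0.16 without Air rats 89 and 145, and without these and PH3 rat 91 Gria4 was -0.46, Gabra6 -0.17 and Grik5 0.0555. Leaving out 1 array gave ranges across 0 for Gabrb1 at 3 h (-0.0136 to 0.72, below 0 without Air rat 97), Gabrq at 3 h (-0.0442 to 0.0421, above 0 without PH3 rat 105 or Air rat 108 or 120), Gabra4 at 6 h (-0.0048 to 0.52, without Air rat 156) and Gabrp in kidney at 1 h (-0.46 to 0.0282, without Air rat 163). Where no value shows it, the cause was not tested. The replicate block (rat) left 25, 29, 24 and 27 subunits higher in brain than in heart, kidney, liver and lung and changed no call among them.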
